A study of Solanum tuberosum with 12 samples.

Results

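This account covers the 5 potato transcripts listed as heat-regulated whose product names contain Flowering locus T, SELF-PRUNING, CONSTANS or FKF1, out of 6438 distinct listed transcripts. They are the Flowering locus T protein (PGSC0003DMG400023365), Protein SELF-PRUNING (PGSC0003DMG400007111), CONSTANS (PGSC0003DMG402010056), Circadian clock-associated FKF1 (PGSC0003DMG400019971) and the Self-pruning G-box protein (PGSC0003DMG400003652). The first 4 were among the 5571 transcripts listed at 8 weeks, the fifth was among the 1447 listed at 3 weeks, and 0 of the 5 were listed at both ages. The Self-pruning G-box protein was chosen by its name and is not a member of the FT family.

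Leaf RNA of cultivar Desiree was sequenced as strand-specific poly(A) libraries in 4 groups of 3, 12 in all. Plants raised in vitro were moved to soil and kept for 3 or 8 weeks under heat (HT), with 35 °C by day and 29 °C by night, or under normal temperature (NT), with 22 °C by day and 16 °C by night. All groups had 12 h of light and 12 h of darkness, and the upper 5 leaves were harvested. Replicates are numbered in the titles, and nothing says whether they came from separate plants, so the p-values reflect no more than the scatter among these libraries, and that scatter may be technical.

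FT proteins are small mobile signals made in leaves. In potato a member of the family travels to underground stems and starts tuber formation, as FT starts flowering in Arabidopsis. SELF-PRUNING, named in tomato, belongs to the related TFL1 group, which keeps shoot tips vegetative. CONSTANS ties FT to day length, and FKF1, a blue-light receptor with an F-box, removes repressors of CONSTANS and FT in Arabidopsis. The tomato self-pruning G-box protein is a bZIP factor that binds SELF-PRUNING, related to the Arabidopsis factor FD that works with FT at the shoot tip.

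At 8 weeks the FT protein and FKF1 were about 4-fold lower in HT leaves than in NT leaves, and CONSTANS was 3.66-fold higher. Protein SELF-PRUNING was read only in HT libraries at that age. At 3 weeks the Self-pruning G-box protein was present at HT and close to undetected at NT. All 5 passed the filter on low counts and all 5 were called (edgeR quasi-likelihood test, Benjamini-Hochberg adjusted p below 0.05). The background was nearly as high, since 97.3% of the transcripts tested at 8 weeks and 97.5% of those at 3 weeks were called. In all 5 the HT and NT libraries did not overlap. All HT libraries stood above all NT libraries for 57.8% of transcripts tested at 8 weeks and 60.0% at 3 weeks, and below them for 37.7% at 8 weeks and 31.9% at 3 weeks. The authors had listed transcripts by their change in these same libraries, keeping log2 changes of 1.5 or more in either direction whose p-value was below 0.01, so a call is not independent evidence of a change. Protein SELF-PRUNING and the Self-pruning G-box protein, with 0 and 2 counts at NT, could be listed and pass the filter only through their HT counts. In bulk leaf RNA, fewer cells of a type and less RNA per cell cannot be told apart.

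The FT protein had 1410, 2735 and 2613 counts in HT libraries 1, 2 and 3 at 8 weeks, against 7142, 8366 and 8398 in NT libraries. Per length and library total, these were 30.5, 50.9 and 54.4 RPKM at HT and 169, 163 and 181 RPKM at NT. Every HT library lay below every NT library, and HT replicate 1 was the lowest of the 6. The mean level was 45.2 ± 12.9 RPKM at HT and 171 ± 9.42 RPKM at NT (SD, n = 3 each). The log2 change was -2.02 ± 0.39 (standard error), 4.05-fold lower at HT (edgeR, adjusted p = 0.0028). Without HT replicate 1 it was -1.80. The authors' deposited table gave a log2 change of -2.03. Ranked by level in the higher group, the FT protein stood 281st of the 5571 listed transcripts, the highest of the 4 members at this age. Ranked by size of change it stood 1361st of the 2067 tested transcripts that were lower at HT.

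Protein SELF-PRUNING, of the opposing TFL1 group, had 26, 18 and 20 counts in HT libraries and 0, 0 and 0 counts in NT libraries. The HT levels were 0.836, 0.499 and 0.619 RPKM, a mean of 0.651 ± 0.171 (SD, n = 3), and the NT libraries were listed at 0. A floor of 3 counts over the NT libraries corresponds to 0.0319 RPKM and makes the transcript at least 18.8-fold higher at HT (adjusted p = 0.0026 by edgeR, 0.019 in the authors' deposited table). The counts at HT are small, and its level ranked 4891st of 5571. The FT protein was far above it at HT, with 30.5 to 54.4 RPKM against 0.499 to 0.836 RPKM. FT and SELF-PRUNING transcripts belong to a family of similar genes, and how reads shared between copies were counted is not given in the sources used here.

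**Figure D1:**
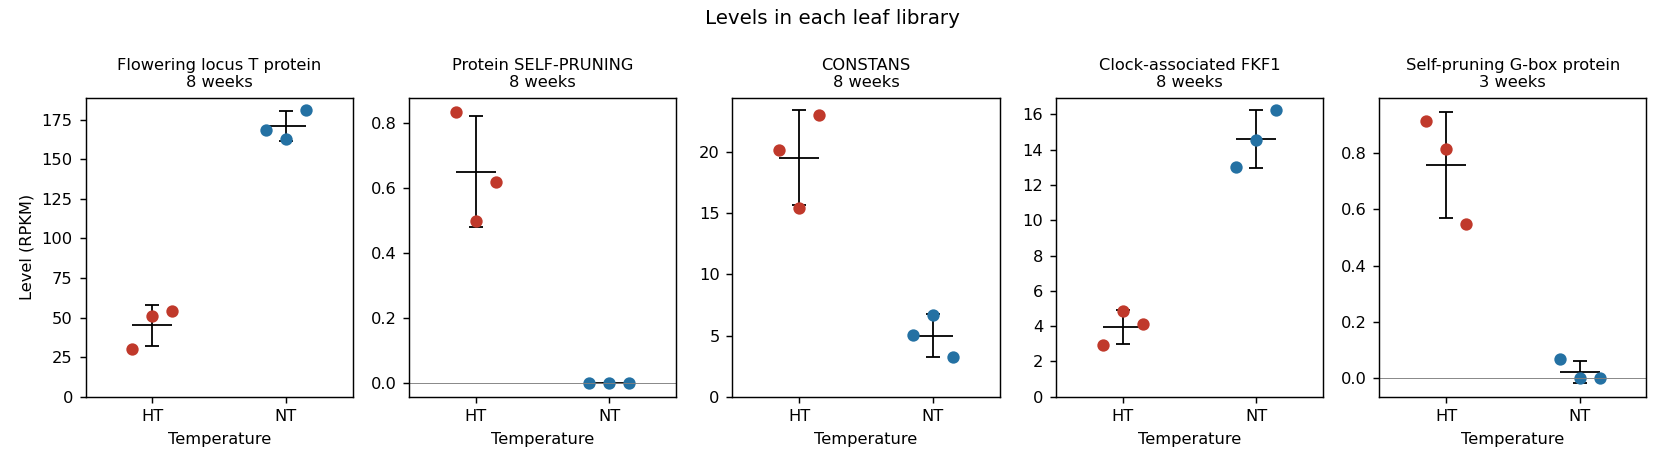
Level in RPKM (y axis, a separate scale in each panel, starting at or below 0) of the 5 transcripts in HT and NT leaf libraries. Points are the 3 libraries of a group in the order of their replicate numbers, and bars give the mean and SD. HT and NT libraries do not overlap in any panel, with the FT protein at 30.5 to 54.4 RPKM at HT and 163 to 181 RPKM at NT.

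CONSTANS, the zinc finger regulator of the response to day length, had 4226, 3739 and 5008 counts in HT libraries, against 962, 1558 and 675 in NT libraries. These were 20.2, 15.4 and 23.0 RPKM at HT and 5.02, 6.71 and 3.22 RPKM at NT. All HT libraries exceeded all NT libraries, and the NT libraries spread more widely relative to their mean. The mean was 19.5 ± 3.87 RPKM at HT and 4.98 ± 1.74 RPKM at NT (SD, n = 3 each). The log2 change was 1.87 ± 0.42 (adjusted p = 0.0044, edgeR). The DESeq2 test with the same scaling gave 1.87 (adjusted p = 6.8e-05). With size factors that DESeq2 estimates from the listed transcripts, all listed for a change, the edgeR value was 0.57 and no longer called (adjusted p = 0.28). These factors put the median log2 change of all tested transcripts at 0.47, against 1.79 with the scaling used here, and moved the FT protein to -3.25 and FKF1 to -3.20.

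FKF1 had 379, 724 and 550 counts in HT libraries and 1528, 2076 and 2092 in NT libraries. Its levels were 2.95, 4.86 and 4.12 RPKM at HT and 13.0, 14.6 and 16.3 RPKM at NT. The groups did not overlap, and HT replicate 1 was again the lowest library. The mean was 3.98 ± 0.960 RPKM at HT and 14.6 ± 1.64 RPKM at NT (SD, n = 3 each), and the log2 change was -1.98 ± 0.39 (adjusted p = 0.003, edgeR). CONSTANS, FT and FKF1 transcripts follow the time of day in Arabidopsis. The hour of harvest is not given in the sources used here, and its part in these values was not tested.

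**Figure D2:**
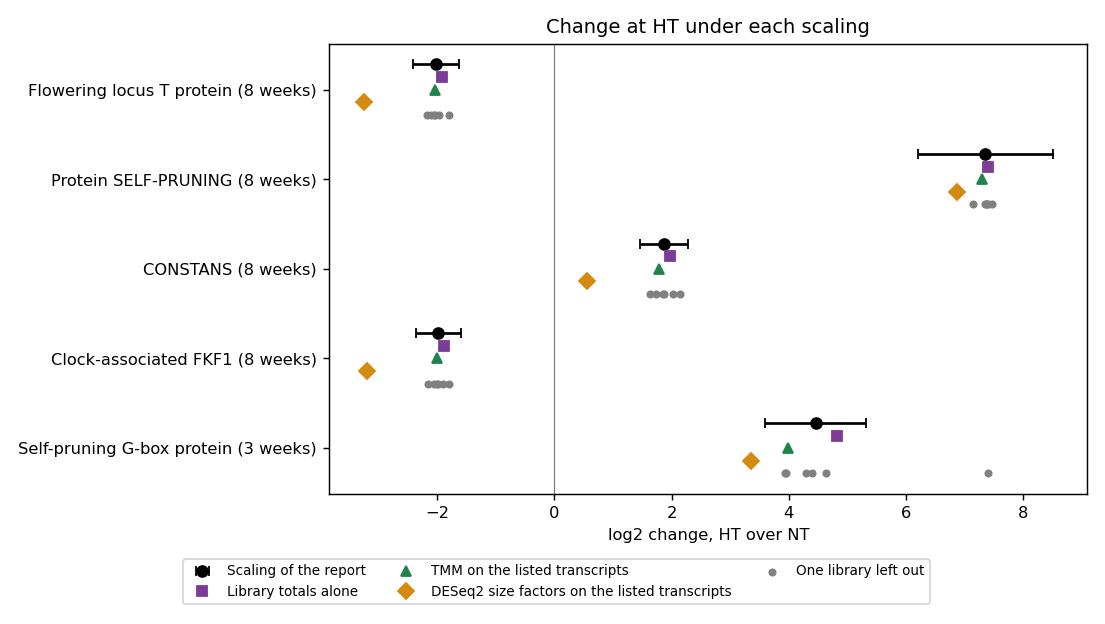
The log2 change, HT over NT (x axis), of each transcript with the scaling used here (black, with its standard error) and with 3 other scalings. Grey points leave out each library in turn. CONSTANS lies at 1.87 and at 0.57 with DESeq2 size factors, and the Self-pruning G-box protein reaches 7.39 without NT replicate 1.

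The ratio between members in a library does not depend on the library total. The FT protein over CONSTANS, both in RPKM, was 1.51, 3.31 and 2.36 in HT libraries 1, 2 and 3, and 33.6, 24.3 and 56.2 in NT libraries. The ranges of the temperatures are far apart. The FT protein was listed as lower and CONSTANS as higher, each by a log2 change of at least 1.5 in these same libraries. A gap between the temperatures therefore follows from the listing and is not separate evidence. The FT protein over FKF1 was 10.3, 10.5 and 13.2 at HT and 13.0, 11.2 and 11.1 at NT. Here the libraries of the temperatures overlapped, with all 6 ratios between 10.3 and 13.2. Both transcripts were listed as lower, at authors' log2 changes of -2.03 and -1.98, so the overlap restates these changes. By level in RPKM, the order at HT was the FT protein, CONSTANS, FKF1 and Protein SELF-PRUNING. At NT it was the FT protein, FKF1, CONSTANS and Protein SELF-PRUNING, with no overlap of ranges between neighbours in either order.

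**Figure D3:**
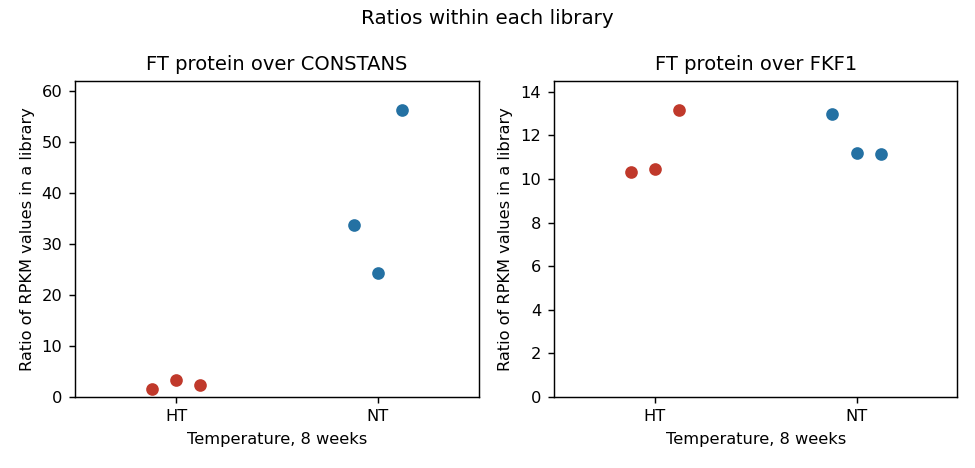
Ratio of RPKM values (y axis, linear from 0) in each 8-week library, the FT protein over CONSTANS on the left and over FKF1 on the right. Points are libraries. The ratio to CONSTANS is 1.51 to 3.31 at HT and 24.3 to 56.2 at NT, and the ratio to FKF1 is 10.3 to 13.2 at HT and 11.1 to 13.0 at NT.

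At 3 weeks the Self-pruning G-box protein, the bZIP partner by name, had 30, 25 and 16 counts in HT libraries and 2, 0 and 0 in NT libraries. The HT levels were 0.915, 0.814 and 0.549 RPKM, and NT replicate 1 held 0.0691 RPKM. HT libraries lay above NT libraries without overlap, though the NT level rests on 2 counts in 1 library. The ratio of summed counts over scaled totals was 25.5, with an exact 95% interval of 6.81 to 215 that covers counting error only. The fitted log2 change was 4.46 ± 0.86 (adjusted p = 0.0028, edgeR). Without NT replicate 1 it was 7.39, a value that then depends on how a group with no counts is handled. With the edgeR p-value adjusted over all 33777 tests of the authors at this age, it was no longer called (adjusted p = 0.074). The adjusted p in the authors' deposited table was 0.00072.

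The FT protein, SELF-PRUNING, CONSTANS and FKF1 have no counts at 3 weeks in the tables used here, and the Self-pruning G-box protein has none at 8 weeks. Absence from a list means only that the transcript was not among those listed at that age. It gives neither a level nor a bound on the change, so no difference between ages was tested for any member. The tables give no chromosome position for these identifiers.

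The transcripts most like the FT protein over the 6 libraries at 8 weeks were found by Pearson r of log2(CPM + 0.5). Of 3979 named transcripts compared, 1151 had r above 0.9. The 5 highest were an Amino acid transporter (PGSC0003DMG400035823, r = 0.9997), a Cytochrome P450 (PGSC0003DMG400033636, 0.9987), a Receptor protein kinase (PGSC0003DMG402000674, 0.9983), Ubiquitin-conjugating enzyme E2 36 (PGSC0003DMG400012390, 0.998) and Brain protein 44 (PGSC0003DMG402005796, 0.9979). In each of the 5, as in the FT protein, HT replicate 1 was the lowest library. The amino acid transporter had 4.09, 7.67 and 8.21 RPKM at HT and 37.6, 34.8 and 41.1 RPKM at NT. For the Self-pruning G-box protein at 3 weeks, 295 of 881 compared transcripts had r above 0.9. The most alike were Nuclear transcription factor Y subunit A-4 (r = 0.996), an F-box domain-containing protein (0.9957), Furin (0.9946), a Gibberellin receptor GID1 (0.9939) and a Gag non-LTR retrotransposase (0.991). These correlations are descriptions over 6 libraries of the same tissue and carry no test. The compared transcripts were all listed for a change between HT and NT in these same libraries. High r between transcripts listed in the same direction therefore follows largely from the listing.

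Few other genes of day length and the clock were listed. The search words gigantea, pseudo-response, late elongated, phytochrome, cryptochrome, zeitlupe, early flowering and cycling dof each matched 0 product names at either age. Of the clock and light list, 0 transcripts remained at 3 weeks and 2 at 8 weeks beside FKF1, after leaving out names in which the search letters fell inside the word hydrolase. The pair at 8 weeks was COP1-interacting protein 7, which in Arabidopsis acts in light responses, and a Zinc finger (B-box type) family protein, a class that includes CONSTANS. COP1-interacting protein 7 had 4.50 ± 2.06 RPKM at HT and 0.903 ± 0.443 RPKM at NT, and the B-box protein 2.23 ± 0.140 RPKM at HT and 0.596 ± 0.0372 RPKM at NT (SD, n = 3 each). Both were called higher, against a background of 59.3% called higher at 8 weeks, and neither was called with DESeq2 size factors.

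The floral and meristem list held 14 tested transcripts at 3 weeks, 5 called higher and 9 lower at HT (median log2 change -1.64, against 1.66 over all transcripts tested). DESeq2 size factors gave 3 higher and 9 lower at 3 weeks, and adjustment over all tests of the authors left 3 higher and 2 lower. At 8 weeks it held 17 tested, 12 called higher and 5 lower (median 1.92, against 1.79 over all), with 2 higher and 5 lower under DESeq2 size factors and 6 higher and 3 lower when adjusted over all tests of the authors. Backgrounds at 3 weeks were 60.3% called higher and 37.2% called lower, and 38.0% were called lower at 8 weeks. Without HT replicate 3, 3 were lower at 8 weeks. MADS-box factors, regulators of floral identity and timing, had 2 higher and 6 lower at 3 weeks. That became 4 higher without NT replicate 1 or 2, 1 higher and 6 lower with DESeq2 size factors, and 1 of each when adjusted over all tests of the authors. At 8 weeks they had 4 of each, 2 of each without HT replicate 3, 2 higher without NT replicate 1, and 0 higher and 4 lower with DESeq2 size factors. These kinds within a list were formed after the values were seen.

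The Agamous-like MADS-box protein AGL8 homolog (PGSC0003DMG400004081), of the group that includes the Arabidopsis flowering and fruit regulator FRUITFULL, was lower at both ages. At 8 weeks it had 52.8, 155 and 111 RPKM at HT and 365, 335 and 319 RPKM at NT, a log2 change of -1.78 ± 0.46 (adjusted p = 0.0075, edgeR). At 3 weeks it had 14.8, 9.18 and 15.8 RPKM at HT and 26.1, 33.2 and 30.8 RPKM at NT, a log2 change of -1.58 ± 0.30 (adjusted p = 0.0025). HT and NT libraries were apart at both ages, and HT replicate 1 was the lowest at 8 weeks, as for the FT protein. This gene, like FBP29, was singled out after its values were seen. MADS-box transcription factor FBP29 (PGSC0003DMG400026563) was also lower at both ages, by log2 changes of -2.93 ± 0.33 at 3 weeks and -2.74 ± 0.52 at 8 weeks. So was a MADS box transcription factor (PGSC0003DMG400022748), at -1.65 and -2.43. The other MADS-box transcript listed at both ages, a Mads box protein (PGSC0003DMG400018623), was called higher at both. At 3 weeks it had 153, 165 and 155 counts at HT and 16, 20 and 23 at NT, a log2 change of 2.52 ± 0.33 (adjusted p = 0.0011, edgeR). At 8 weeks it had 52, 362 and 830 counts at HT and 61, 79 and 52 at NT, and the groups overlapped through HT replicate 1. The log2 change there was 2.51 ± 0.86 (adjusted p = 0.021, edgeR). That call was lost without HT replicate 3 (1.42) or any NT library (2.39 to 2.61), and with DESeq2 size factors (1.30). Different transcripts named Squamosa promoter binding, factors of the shift from juvenile to adult growth, were lower at 3 weeks (2 of 2) and higher at 8 weeks (2 of 2, or 0 of 2 called with DESeq2 size factors). Over all transcripts tested, 37.2% were called lower at 3 weeks and 59.3% higher at 8 weeks.

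The largest changes in the floral list belonged to Leafy cotyledon 1 proteins, which are subunits of the NF-Y complex known from seed development and share only a word with the floral regulator LEAFY. All tested ones were called higher, 3 at 3 weeks and 5 at 8 weeks, or 2 at each age with DESeq2 size factors. Over all transcripts tested, 60.3% were called higher at 3 weeks and 59.3% at 8 weeks. PGSC0003DMG400013503 had 32, 65 and 16 counts at HT and 0, 1 and 0 at NT at 3 weeks, and 61, 47 and 44 at HT and 0, 0 and 0 at NT at 8 weeks. PGSC0003DMG400013504 had 20, 37 and 16 counts at HT and 0, 1 and 0 at NT at 3 weeks, and 35, 29 and 33 at HT and 0, 0 and 0 at NT at 8 weeks. A further one (PGSC0003DMG400013502) had 13, 14 and 12 counts at HT and 0, 1 and 0 at NT at 8 weeks. All 3 are rare transcripts that appeared almost only at HT, as Protein SELF-PRUNING did, and similar copies of this gene may share reads. With 0 or 1 counts in each NT library, they could be listed and pass the filter only through their HT counts. Higher was thus the only direction open to them. Flowering promoting factor-like 1, named after a protein that hastens flowering, was lower through a different transcript at each age, with log2 changes of -3.70 ± 0.82 at 3 weeks (PGSC0003DMG400011346) and -3.70 ± 0.93 at 8 weeks (PGSC0003DMG400011345). Both are scarce, with 2, 5 and 4 counts at HT and 11, 24 and 72 at NT at 3 weeks (-2.67 without NT replicate 3), and 1, 0 and 4 at HT and 20, 20 and 22 at NT at 8 weeks (-5.22 without HT replicate 3 and -3.11 without HT replicate 2). With so few HT counts, they could be listed and pass the filter only through their NT counts. Lower was thus the only direction open to them.

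The tuberization list held 13 tested transcripts at 3 weeks, 7 higher and 6 lower. At 8 weeks it held 54 tested, 28 higher and 22 lower. Over all transcripts tested, 60.3% were called higher and 37.2% lower at 3 weeks, and 59.3% and 38.0% at 8 weeks. The split of the list is not far from these shares. AP2 domain names made up 21 of the 54. DESeq2 size factors gave 1 higher and 6 lower at 3 weeks and 12 higher and 23 lower at 8 weeks. Adjustment over all tests of the authors left 0 higher and 2 lower at 3 weeks and 16 higher and 10 lower at 8 weeks. Their medians were 1.57 and 1.80, close to those of all transcripts tested. 14-3-3 proteins, which in rice and Arabidopsis bridge FT and FD, had 1 member at each age, both lower. At 3 weeks a scarce 14-3-3 protein (PGSC0003DMG400028377) had 1, 11 and 7 counts at HT and 163, 196 and 122 at NT, a log2 change of -5.09 ± 0.67 (adjusted p = 0.0011, edgeR), or -5.72 without HT replicate 2. With so few HT counts, it could pass the filter only through its NT counts. At 8 weeks an abundant 14-3-3 protein (PGSC0003DMG400007807) had 44.7, 45.0 and 47.2 RPKM at HT and 136, 95.9 and 138 RPKM at NT, a log2 change of -1.53 ± 0.36 (adjusted p = 0.0051).

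Homeobox factors of the BEL and knotted classes, which pair with each other and act on tuber formation in potato, had 3 higher and 2 lower at 8 weeks (1 and 2 with DESeq2 size factors). Over all transcripts tested at that age, 59.3% were called higher and 38.0% lower. The most abundant of these factors, BEL14 protein, had 14.4, 39.7 and 30.9 RPKM at HT and 76.6, 80.0 and 72.7 RPKM at NT, again lowest in HT replicate 1. Bell-like homeodomain protein 4 had 1.67 ± 0.743 RPKM at HT and 0.172 ± 0.0959 RPKM at NT (SD, n = 3 each). Gibberellin, the hormone that opposes tuber formation, was represented by 15 tested transcripts at 8 weeks, 7 higher and 7 lower (4 higher without NT replicate 1, and 1 and 8 with DESeq2 size factors). Of 3 transcripts named Gibberellin 2-oxidase at 8 weeks, enzymes that break the hormone down, 2 were called, both lower, one of them Gibberellin 2-oxidase 1 (PGSC0003DMG400021095) at -2.66 ± 0.58. Gibberellin 20-oxidase-1, an enzyme of its synthesis, had 44.5 ± 5.53 RPKM at HT and 11.9 ± 2.85 RPKM at NT, a log2 change of 1.81 ± 0.38 that was not called with DESeq2 size factors. Other gibberellin names went both ways. Gibberellin 3-oxidase (PGSC0003DMG400005698) was at 3.01 ± 0.56 and Gibberellin 3beta-hydroxylase3 (PGSC0003DMG400029063) at -3.15 ± 1.14. Transcripts named Gibberellin receptor GID1 ran from -2.65 ± 0.67 (PGSC0003DMG402008665) to 1.87 ± 0.63 (PGSC0003DMG400003009).

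Relative to APETALA2 1, of the family of floral AP2 factors that microRNA miR172 targets, had 27.7, 39.7 and 31.9 RPKM at HT and 9.46, 7.66 and 7.79 RPKM at NT at 8 weeks, a log2 change of 1.90 ± 0.36. It was 0.64 and not called with DESeq2 size factors. Over all transcripts tested, 59.3% were called higher and 38.0% lower at 8 weeks, and 60.3% and 37.2% at 3 weeks. Other AP2 domain names, with a split not far from these shares, had 11 higher and 8 lower at 8 weeks, and 5 higher with DESeq2 size factors. They had 7 higher without NT replicate 1 or 3, 4 lower without HT replicate 2, and 5 lower without NT replicate 2 or 3. Among the lower ones was PHAP2A protein (PGSC0003DMG400004006), opposite in direction to Relative to APETALA2 1. PHAP2A protein had 8.49 ± 2.74 RPKM at HT and 26.2 ± 7.26 RPKM at NT (SD, n = 3 each). Its HT and NT libraries did not overlap, and its log2 change was -1.73 ± 0.43 (adjusted p = 0.0065, edgeR). The AP2 transcription factor PGSC0003DMG400000636 had 122, 78 and 58 counts at HT and 0, 4 and 0 at NT, and the AP2/ERF factor PGSC0003DMG400012179 had 29, 51 and 79 at HT and 3, 0 and 0 at NT. At 3 weeks 5 AP2 domain names were higher (3 without HT replicate 3, 1 with DESeq2 size factors) and 2 lower (1 without any HT library or without NT replicate 3). The AP2/ERF factor PGSC0003DMG400002899 had 803, 1279 and 2331 counts at HT and 201, 36 and 31 at NT, a log2 change of 3.59 ± 0.85, or 5.02 without NT replicate 1. At 8 weeks PGSC0003DMG400002899 had 34, 2291 and 9195 counts at HT and 640, 497 and 549 at NT. There the groups overlapped and it was not called (log2 2.58 ± 1.31, adjusted p = 0.082, edgeR), with 0.73 without HT replicate 3 and 3.16, called, without HT replicate 1. PGSC0003DMG400018486 had 44, 28 and 16 counts at HT and 4, 0 and 1 at NT at 3 weeks, and 71, 111 and 129 at HT and 6, 1 and 1 at NT at 8 weeks. With so few NT counts, PGSC0003DMG400018486, PGSC0003DMG400000636 and PGSC0003DMG400012179 could be listed and pass the filter only through their HT counts. Higher was thus the only direction open to them. Patatins, the storage proteins of tubers, had 5 higher and 2 lower at 8 weeks (1 lower without HT replicate 2 or NT replicate 2 or 3). The shares over all transcripts tested at that age were 59.3% higher and 38.0% lower. The most abundant patatin was Patatin group O (PGSC0003DMG400029247), with 135, 54.3 and 41.4 RPKM at HT and 9.94, 3.86 and 7.84 RPKM at NT. Its log2 change was 3.32 ± 0.61 (adjusted p = 0.0025, edgeR). The largest fall, against the direction of most patatins, was that of a Patatin 3 (PGSC0003DMG400000766), with 0.484 ± 0.426 RPKM at HT and 15.0 ± 2.63 RPKM at NT (log2 -5.06 ± 0.72, adjusted p = 0.0014, edgeR, and -6.06 without HT replicate 3).

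**Figure D4:**
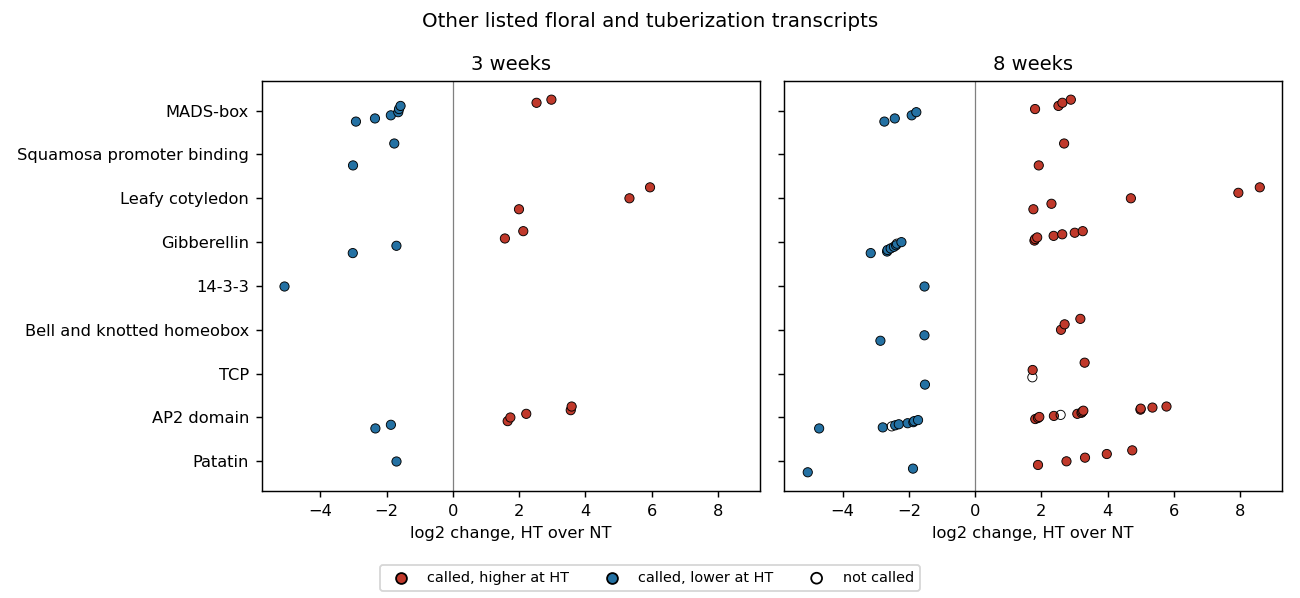
The log2 change, HT over NT (x axis), of the tested floral and tuberization transcripts at 3 weeks (left) and 8 weeks (right), in rows by kind, leaving out names of no kind and accidental matches. Filled points were called and open points were not. The 14-3-3 points lie at -5.09 and -1.53, and the MADS-box points fall on both sides of 0 at each age.

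The libraries held between 52514661 and 66602938 counts, as recovered from the RPKM values. Photosynthesis markers of leaf were present in every library, at a summed 2449 to 2877 RPKM at HT and 5638 to 6416 RPKM at NT over 9 listed transcripts at 3 weeks, and 36086 to 77256 RPKM at HT and 10481 to 12194 RPKM at NT over 38 at 8 weeks. Of these, 4 were called higher and 5 lower at 3 weeks, and 38 higher and 0 lower at 8 weeks. The shares over all transcripts tested were 60.3% higher and 37.2% lower at 3 weeks, and 59.3% and 38.0% at 8 weeks. Flower names were found by agamous, apetala, pollen, anther and like words. At 8 weeks they summed to 894 to 1242 RPKM at HT and 398 to 495 RPKM at NT. Of these 22 transcripts, 14 were called higher and 5 lower, and 0 of the 22 were at 0 in all libraries. The AGL8 homolog, matched by agamous, held most of the NT sums, with 365, 335 and 319 RPKM. At HT it held 52.8, 155 and 111 RPKM. At 3 weeks 6 transcripts with flower names summed to 10.7 to 19.5 RPKM at HT and 32.0 to 37.6 RPKM at NT, with 1 called higher and 2 lower, and 0 of them were at 0 in all libraries. Most of each of these sums was the AGL8 homolog, with 14.8, 9.18 and 15.8 RPKM at HT and 26.1, 33.2 and 30.8 RPKM at NT. Tuber and storage names summed to 155 to 204 RPKM at HT and 235 to 308 RPKM at NT over 11 transcripts at 8 weeks, although 6 of them were called higher and 3 lower. Most of the NT sum was a single Tuber-specific and sucrose-responsive element binding factor (PGSC0003DMG400024983), matched by the word tuber. It had 28.3, 81.6 and 101 RPKM at HT and 196, 205 and 255 RPKM at NT. Patatin group O, in the same sum, went the other way, with 135, 54.3 and 41.4 RPKM at HT and 9.94, 3.86 and 7.84 RPKM at NT. At 3 weeks the 1 tuber and storage name, called lower, had 3.17 to 4.76 RPKM at HT and 5.08 to 15.4 RPKM at NT. The part of these markers in the changes of the members was not tested. At 8 weeks HT replicate 1 lay over 4-fold above both other HT libraries for 444 of the 5571 transcripts and over 4-fold below both for 345. Without it the log2 changes of FKF1, CONSTANS and the FT protein were -1.80, 1.85 and -1.80, and all remained called.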

How the data were processed

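The authors deposited 3 tables of transcripts listed as changed between HT and NT, of which the sheets at 3 and 8 weeks were used; the third concerns transcripts listed at both ages. Per the file headers they hold raw counts per transcript and library. The authors' group means of counts (a signal) and signed fold change (a score) were not used. The maximum group mean was deposited in RPKM, and with counts and transcript lengths it gave each library's total exactly. The authors' deposited log2 fold changes, p-values and their 2 adjusted forms come with no tool named in the headers; the sources used here name neither aligner, counter nor genome build, nor say whether counting used strand.

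RPKM values are counts over length and library total. For tests, HT totals were multiplied by the constant by which the authors' log2 fold changes departed from these totals, 1.32 at 3 weeks and 1.07 at 8 weeks, the scaling of CPM as well. Listed counts were 1.76% to 23.2% of a library, so no library size was taken from the list. Each sheet was fitted whole in R 4.3.3 by the quasi-likelihood test of edgeR 4.0.16 after filterByExpr, HT against NT, 3 libraries each, adjusted over the 1280 or 5176 transcripts tested. A standard error is the size of the log2 change divided by the square root of F. DESeq2 1.42.0 gave an alternative test with the same scaling, and alternative size factors that were used in the edgeR test. The fit was tested on simulated counts with a fixed dispersion and most transcripts unchanged, unlike the sheets. It called 68.1% of 2-fold changes at 3 weeks and 57.3% at 8 weeks. Of 4-fold changes it called 97.9% and 100%. Replicate numbers did not pair HT with NT libraries. The test of the difference between ages was planned for members in both sheets, of which there were none.

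Members and lists were chosen with earlier results of these data known. All members are named. Of each context list, found by words in product names, up to 3 calls with the largest change, groups apart and at least 10 counts in the higher group are named; other genes were chosen after their values were seen. By that rule the clock list named GDSL-like lipases that matched by letters only and are not described. Likeness used transcripts with a name and a mean of at least 10 counts.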

Additional observations from a re-analysis of the deposited data

Results flagged for a closer look

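Ga20 oxidase (PGSC0003DMG400027963), an enzyme of gibberellin synthesis in the tuberization list, went in opposite directions at the ages. Its log2 change, HT over NT, was -3.02 at 3 weeks and 2.37 at 8 weeks. At 3 weeks it had 1.43, 2.16 and 2.34 RPKM at HT and 7.82, 12.3 and 16.4 RPKM at NT. At 8 weeks it had 1.74, 3.14 and 1.95 RPKM at HT and 0.531, 0.201 and 0.499 RPKM at NT. At each age every HT library lay on one side of every NT library. The difference between ages was not tested, and the change at 8 weeks was not called with DESeq2 size factors (log2 1.13, adjusted p = 0.13 by edgeR).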

How the results depend on the processing

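All 5 members kept their direction under every alternative run. They were listed for a log2 change of at least 1.5 in these same libraries, so the kept direction is not separate evidence. For SELF-PRUNING and the G-box protein, higher was the only direction open. Adjusting the edgeR p-values over all tests of the authors ended the call of the Self-pruning G-box protein at its 4.46. Its adjusted p in the authors' deposited table was 0.00072. The DESeq2 test with the scaling used here kept all 5 called, with CONSTANS at 1.87 (adjusted p = 6.8e-05). In edgeR, DESeq2 size factors, estimated from transcripts all listed for a change, took CONSTANS to 0.57, no longer called. With these size factors the calls at 3 weeks numbered 662 (155 higher and 507 lower), against 1248 (772 and 476), and at 8 weeks 3281 (1179 and 2102), against 5035 (3067 and 1968). Adjusted over all tests of the authors, 283 were left at 3 weeks (162 and 121) and 2970 at 8 weeks (1786 and 1184). The median log2 change over all tested transcripts was 0.43 and 0.47 with the size factors at 3 and 8 weeks, against 1.66 and 1.79 with the scaling used, 2.07 and 1.89 with library totals alone, and 1.12 and 1.73 with TMM. With a replicate block, which the numbers do not justify, calls were 1212 and 4808, and all 5 members stayed called, with the FT protein at -2.06 and the G-box protein at 4.59. Same-numbered libraries correlated in their deviations at 0.192, 0.165 and -0.07 at 3 weeks and at -0.067, 0.039 and 0.014 at 8 weeks. With each library left out in turn, the log2 change ran from -2.17 to -1.80 for the FT protein, -2.15 to -1.80 for FKF1, 1.64 to 2.15 for CONSTANS, 7.14 to 7.47 for SELF-PRUNING and 3.93 to 7.39 for the G-box protein, with all calls kept, and the calls over all transcripts from 1126 to 1327 at 3 weeks and from 4453 to 4993 at 8 weeks. The test between ages and its alternatives were not run. Depth limits SELF-PRUNING and the G-box protein, whose fitted changes rest on 0 and 2 counts at NT.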
